A study of Mus musculus with 80 samples.

Results

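The ion pump and vacuolar ATPase genes were represented on the kidney arrays by 42 of 16896 spotted cDNA clones, from 28 of 7151 named genes. Members were taken by symbol alone: a clone entered if its only gene symbol began with Atp1a, Atp1b, Atp2, Atp6, Atp7, Atp8, Atp9, Atp11 or Atp13, with 1 sodium pump gene not analysed here. The rule itself uses no measured value. The symbol pattern also admitted Atp23, a mitochondrial metalloprotease that is no pump, and its clone is reported apart from the families. Of the 42 clones, 22 lay on filter set A and 20 on set B.

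Whole kidneys came from 40 C57BL/6 mice, an inbred laboratory strain without any transgene or drug, all fed regular chow freely until death. Males and females were each sampled at 17 to 44, 169 to 194, 476 to 499 and 704 to 743 days of age, with 5 mice in each of the 8 groups. In the youngest group, 5 mice were 17 to 21 days old and the other 5 were 33 to 44 days old. Radiolabelled cDNA of each mouse was hybridised to 2 nylon filters, set A and set B, which carry different clones, so 80 arrays were available and each mouse counts as 1 replicate for each clone. In the order of the serial numbers in their titles the mice can be divided into 5 sets, each with a single male and a single female per age. The numbers have gaps within these sets and none between them, so they do not mark the borders. No label says what these sets stand for. They are called rounds of arrays here, and differences are also given within rounds or by pairs of mice of the same round. Pairs of a male and a female share the round and the age group but not always the age. In the youngest group a male of 43 days is paired with a female of 17 days in round 1. In round 4 a male of 17 days is paired with a female of 40 days. Sex and age in days are not separated within such pairs.

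P-type pumps are single catalytic chains that are phosphorylated by ATP during each cycle. They include the sodium pump of the basolateral tubule membrane, which powers nearly all renal reabsorption, the calcium pumps of endoplasmic reticulum and plasma membrane, copper pumps of the secretory route and flippases that turn phospholipids from one leaflet of a membrane to the other. The V-ATPase is a rotary proton pump built from a cytosolic V1 sector, which hydrolyses ATP, and a membrane V0 sector, which carries the protons. It acidifies lysosomes and endosomes in every cell and, at the surface of intercalated cells and proximal tubule cells, secretes acid into the urine.

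By family, 10 clones of 6 genes belonged to V1 (Atp6v1a, Atp6v1b2, Atp6v1c1, Atp6v1d, Atp6v1e1 and Atp6v1g1) and 7 clones of 6 genes to V0 (Atp6v0a1, Atp6v0a2, Atp6v0a4, Atp6v0b, Atp6v0d1 and Atp6v0e). Another 2 clones represented the accessory subunits Atp6ap1 and Atp6ap2. Sodium pump beta subunits were represented by Atp1b2 and Atp1b3, with 1 clone each. For the calcium pumps, 3 clones were of Atp2a2, the endoplasmic reticulum pump SERCA2, and 3 of Atp2b1, a plasma membrane pump. Copper pumps had 3 clones of Atp7a and Atp7b, flippases 5 clones of Atp8b2, Atp9a, Atp11a and Atp11b, and the P5 ATPases, a class that transports polyamines or inserted membrane helices rather than metal ions, 6 clones of Atp13a1, Atp13a3 and Atp13a5.

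Lysosomal genes are known to share a promoter element, TCACGTGA, which the transcription factor TFEB and its relatives bind, so the promoters of the members are shown for the part of the gene set that carries it. RefSeq promoter windows (GRCm38.p6 assembly, 250 bases before to 50 after the gene's start, read on the gene's strand) were matched by gene ID for 21 of the 28 genes. Some genes had more than 1 window, and a gene was counted if any of its windows held the word. The letters CACGTG occurred for 7 of these 21 genes and the longer TCACGTGA, which contains CACGTG, for 5. Both are palindromes, so that 1 search covered both strands. Over all 27025 genes with a window, 8.09% held CACGTG and 1.12% held TCACGTGA. Counted by window, CACGTG was in 25.9% of the members' 27 windows and in 7.15% of all 32851. TCACGTGA was in 18.5% and 0.974% of them. Among the 10 V-ATPase genes with a window, 4 held the shorter and 3 the longer word. In the sequences below, capitals mark the word that was searched for, with 10 bases on either side.
Atp6v0d1, chr8:105566051-105566078, minus strand: cctactgcggTCACGTGAgacgcggtgc
Atp6v0e, chr17:26676388-26676415, plus strand: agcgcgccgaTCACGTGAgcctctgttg
Atp6v1a, chr16:44139374-44139401, minus strand: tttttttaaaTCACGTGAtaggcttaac
Atp2b1, chr10:98914639-98914666, plus strand: gcgggccgcgTCACGTGAccgcgcccag
Atp7a, chrX:106027126-106027153, plus strand: gtgctcccttTCACGTGAcgtggaccat
Atp6v0b, chr4:117887350-117887375, minus strand: gcgcgggggtCACGTGgggtcggcgc
Atp1b3, chr9:96363921-96363946, minus strand: gagcggggcaCACGTGctgccggttc
The word began 4 bases before the start of Atp6v0d1 and 132 bases before that of Atp6v1a. Atp6v0b held a further CACGTG, 18 bases before its start. A match describes letters in the window and is not a measured binding site.

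The values are scores in which each array has a mean of 0 and an SD of 1, so every level and every difference below is in array SDs. Whether the scale underneath was logarithmic is unknown, hence no value can be read as a fold, and levels of different clones are not comparable as amounts of RNA. A further limit is that in RNA from whole kidney, fewer cells of a type and less RNA per cell cannot be told apart. Markers of the tissue were thin on these filters: 3 of 9 proximal tubule genes were measured (Lrp2, Cubn and Gatm, of which 2 lay above the median clone of their set), 1 of 5 intercalated cell genes (Slc4a1, above it) and 0 of 3 of the thick ascending limb. None of the marker genes of any list was called in any of the comparisons below. Arrays correlated with the rest of their set at 0.891 to 0.965 on average in set A and at 0.916 to 0.976 in set B, and 8 mice had an array that stood apart by this measure. They were male replicates 1 and 5 at 17 to 44 days and 4 and 5 at 169 to 194 days, and female replicate 5 at 169 to 194, replicate 1 at 476 to 499 and replicates 4 and 5 at 704 to 743 days. Values without them were taken only for counts, medians and the genes with the smallest p (3 per direction or F test). They are given beside those results that moved by over 1.5 times. No such values were taken for other clones or for genes outside the members, so their absence does not mean stability.

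In no comparison did a member clone pass the test, limma's moderated test with Benjamini-Hochberg adjustment over all 16896 clones at an adjusted p under 0.05. For male minus female, 0 of 42 members were called against 0.107% of all clones (18). For 169 to 194 minus 17 to 44 days, for 704 to 743 minus 169 to 194 days, for a difference among any of the 4 ages, for the slope with age and for a sex difference changing with age, 0 of 42 were called, and the share of all clones was 0% each time. The lowest adjusted p of a member in limma was 0.933, for 169 to 194 minus 17 to 44 days. A p that misses the threshold does not show that ages or sexes were alike, so the intervals that bound each difference are given with it.

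At an unadjusted p under 0.05, 5 of 42 members stood in the sex comparison (11.9%) against 4.48% of all clones. The counts for the ages were 2 members against 5.08% of all clones for 169 to 194 minus 17 to 44 days, 0 against 2.36% for 704 to 743 minus 169 to 194 days, 1 against 3.39% for any age difference and 2 against 5.2% for the slope. For a sex difference changing with age the count was 3 against 3.23%. These counts are small and depended on the mice included. Without the 8 mice with outlying arrays they were 0 for 169 to 194 minus 17 to 44 days, 2 for 704 to 743 minus 169 to 194 days, 0 for any age difference, 2 for the slope and 0 for a sex difference changing with age. Leaving out single mice gave 0 (male replicate 1 at 17 to 44 days) to 4 (male replicate 2 of that age) for 169 to 194 minus 17 to 44 days, and 0 to 2 for both 704 to 743 minus 169 to 194 days and any age difference. It gave 1 to 3 for the slope and, for a sex difference changing with age, 1 (female replicate 4 at 704 to 743 days) to 4. The 5 of the sex comparison were Atp6v0a2, Atp6v1b2, Atp6v1d, Atp11a and a dim clone of Atp2a2. Their number was as low as 2 when single mice were left out (without male replicate 1 at 704 to 743 days), and it moved by over 1.5 times in 24 of 40 such fits. It was 0 without the 5 mice of 17 to 21 days, 2 without the 8 mice with outlying arrays and 2 on the values as deposited.

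**Figure D1:**
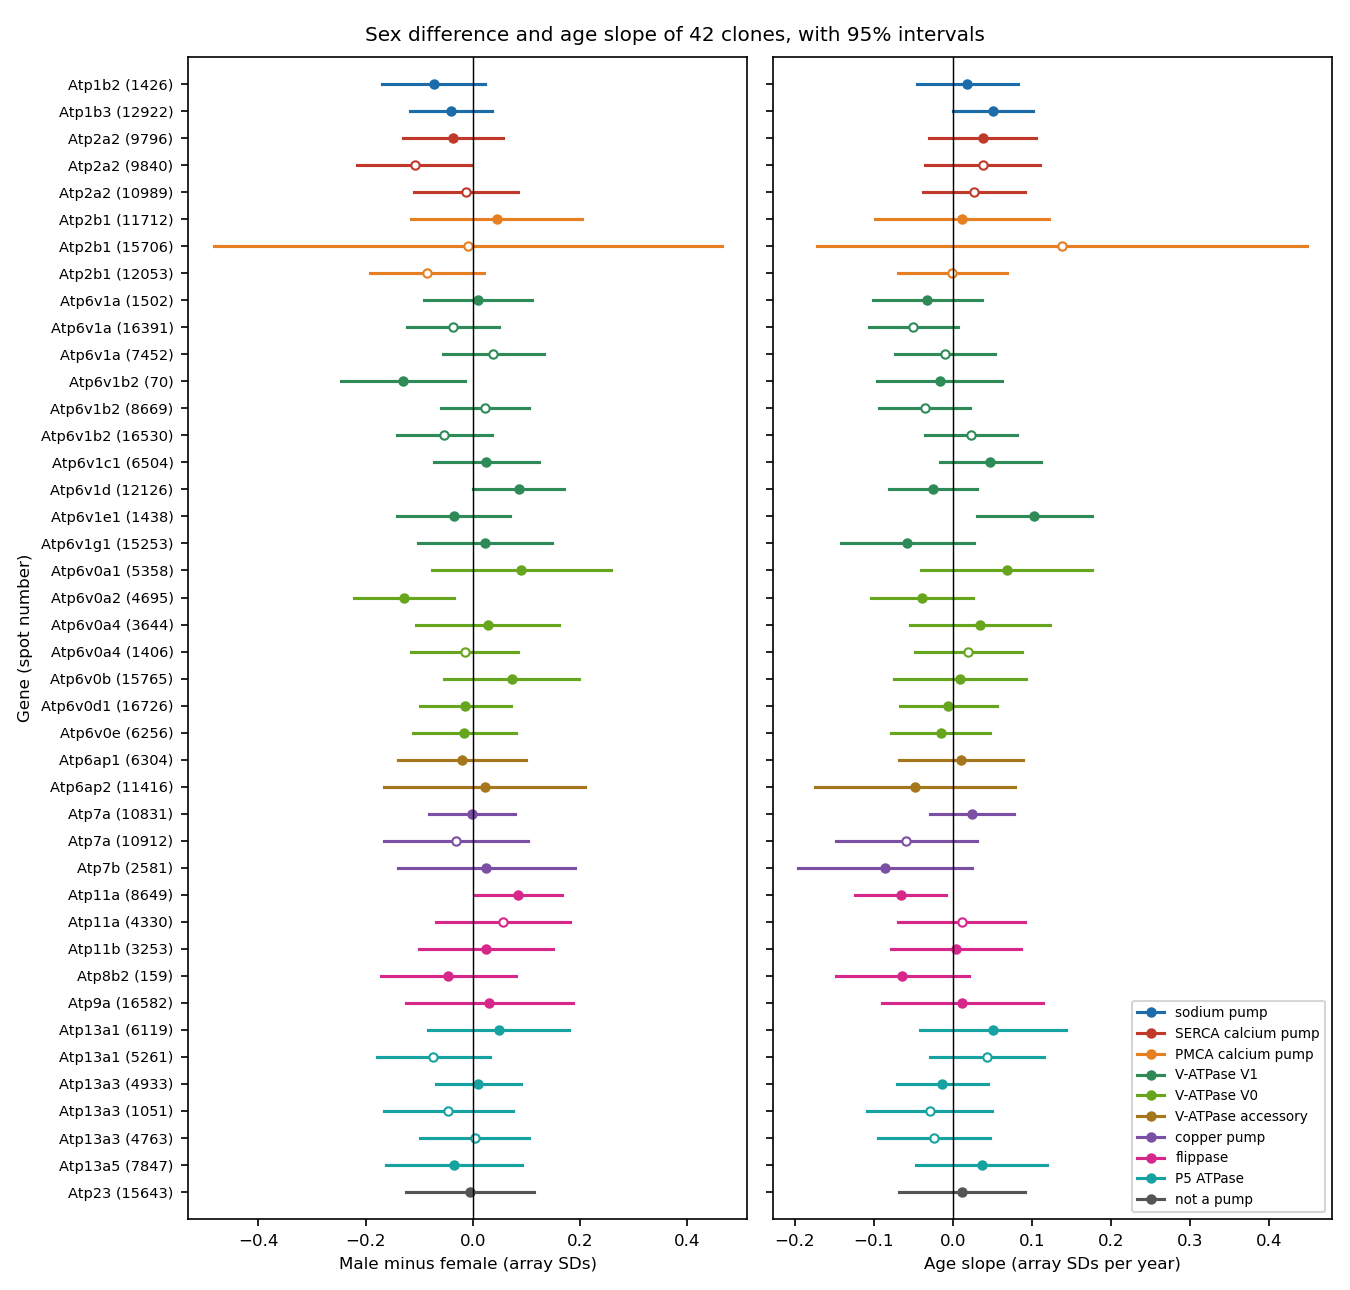
Difference between males and females (left, array SDs) and slope with age (right, array SDs per year) of each of the 42 clones, coloured by family, with 95% confidence intervals from limma; filled points are the brightest clone of a gene and open points its other clones. The points lie on both sides of 0, and the widest intervals belong to the dimmest clone, Atp2b1 at spot 15706.

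The intervals can be read against the sex differences that the same arrays did call. For male minus female, the larger bound of the 95% interval had a median of 0.161 array SD over the 42 clones and reached 0.258 at most, except for the dimmest clone of Atp2b1, where it was 0.484. The smallest of the 18 called sex differences on the arrays was 0.204 array SD, and for 35 of the 42 clones the interval lay wholly within that size. That size belongs to a clone outside the members, selected by passing the adjustment, while each interval is unadjusted. It is a mark of size only. For the age comparisons the median bound was 0.211 (169 to 194 minus 17 to 44 days) and 0.213 (704 to 743 minus 169 to 194 days), with the widest again in Atp2b1, at 0.773 and 0.876. In these age comparisons, where no clone of the arrays was called, only 18 and 20 of the 42 clones were bounded below 0.204. The slope was bounded below 0.2 array SD per year in 41 of 42 clones.

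Members lay on both sides of 0 in each comparison. Between the sexes, 19 clones were higher and 23 lower in males, with a median difference of -0.00713 array SD, where all clones had 8307 higher, 8589 lower and a median of -0.00117. This median was 0.00988 over the 28 representative clones and 0.00924 without dim clones, so that its sign turned. From 17 to 44 to 169 to 194 days, 27 were higher and 15 lower in the older mice (median 0.0234), where all clones had 8622 higher, 8274 lower and a median of 0.0022. The members' median was -0.00609 without the 8 mice with outlying arrays. From 169 to 194 to 704 to 743 days, 19 were higher and 23 lower (median -0.00595), where all clones had 8548 higher, 8348 lower and a median of 0.000988. The members' median was -0.0253 over representatives, 0.00285 once the mice with outlying arrays were left out and 0.00874 without male replicate 1 of the oldest group, so that it too has no settled sign. Within the V-ATPase, 10 of 19 clones were higher in males, 11 of 19 at 169 to 194 than at 17 to 44 days, and 7 of 19 at 704 to 743 than at 169 to 194 days. Of all clones, 49.2%, 51.0% and 50.6% were higher in these comparisons. The member and V-ATPase counts are descriptive and carry no test.

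Atp1b3, a beta subunit that escorts the catalytic chain of the sodium pump to the cell surface, had at 17 to 44 days a lowest value of -0.048, a median of 0.214 and a highest value of 0.312 array SD. Its median was 0.285 at 169 to 194 days (0.0115 to 0.41), 0.293 at 476 to 499 days (0.0616 to 0.391) and 0.308 at 704 to 743 days (0.128 to 0.46). The ranges of all 4 groups overlap. The means were 0.195, 0.261, 0.249 and 0.319 in the order of age, so that, unlike the medians, they were not in that order throughout. The slope was 0.0509 ± 0.0253 (SE, n = 40) array SD per year, with a limma p of 0.0509 before adjustment and 0.937 after it. Between 17 to 44 and 169 to 194 days the difference was 0.0664 ± 0.0537, and 0.039 without the male of replicate 5 in the youngest group, the mouse with the lowest value. It was 0.0166 without the 8 mice with outlying arrays, of which that male is 1. F for any age difference was 1.81 (limma p 0.162), 0.806 without those 8 mice and 1.10 without the 5 mice of 17 to 21 days.

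The other beta subunit, Atp1b2, best known from glia and neurons, gave a dim clone, in the dimmest 25% of its set. Its values ran from -1.57 to -1.06 in the 20 males and from -1.53 to -1.02 in the 20 females, so the sexes overlapped over nearly their whole ranges. Males were lower by 0.0728 ± 0.0475 on average and in 14 of 20 pairs of the same age group and round, and the difference did not pass. The regulators of the sodium pump on the list used here, 7 of 15 of which were measured (Fxyd4, Fxyd6, Sgk1, Wnk1, Wnk4, Stk39 and Oxsr1), held 0 called genes in every comparison. Wnk4, a kinase that governs salt transport in the distal tubule, had a slope of 0.114 ± 0.0471 array SD per year (limma p 0.0195, adjusted 0.937). Wnk4 here, and Itpr2, Rogdi, Ccdc115 and Mt2 below, each had an unadjusted limma p under 0.05. They do not typify the 36 measured genes of these lists. For sex 1 of the 36 had such a p (4.48% of all clones). The count was 1 for 169 to 194 minus 17 to 44 days (5.08%) and 1 for 704 to 743 minus 169 to 194 days (2.36%). It was 0 for any age difference (3.39%), 3 for the slope (5.2%) and 2 for a sex difference changing with age (3.23%).

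SERCA2, which refills the endoplasmic reticulum with calcium, was measured by 3 clones of Atp2a2, of which 2 were dim. All 3 were lower in males, by 0.0129 to 0.108 array SD, and all 3 had a slope above 0, between 0.0269 and 0.038 array SD per year. None of these passed in limma. The brightest clone showed instead the lowest p of any member in the test of whether the sex difference depended on age (F = 3.82, p = 0.0172, adjusted p = 1.00 in limma).

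The individual values of that Atp2a2 clone changed order from age to age. At 169 to 194 days the males had 0.0182, 0.0583, -0.00912, 0.238 and 0.022 and the females 0.01, -0.0304, -0.342, 0.0693 and -0.359. At 476 to 499 days the males had -0.306, 0.0471, -0.0395, -0.409 and -0.12, and the females -0.0476, 0.0186, -0.0846, 0.226 and 0.198. Thus males averaged higher in the first of these groups (0.0654 ± 0.0993 against -0.130 ± 0.204, SD, n = 5) and lower in the second (-0.166 ± 0.188 against 0.0621 ± 0.142), and the sexes overlapped in both. Without the mice with outlying arrays F was 2.35. From 17 to 44 to 169 to 194 days the clone's mean moved by 0.0764 ± 0.0648, by 0.0445 without the male of replicate 3 in the youngest group and by 0.022 without the 5 mice of 17 to 21 days. The dim clones of Atp2a2 did not repeat the change of sex order between 169 to 194 and 476 to 499 days. At spot 9840 males averaged lower at both ages (-1.26 against -1.23 and -1.39 against -1.21). At spot 10989 they averaged higher at both (-0.905 against -0.995 and -0.894 against -0.913).

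Atp2b1, a plasma membrane pump that expels calcium from the cell, was measured by 3 clones. The brightest by rank lay at 0.169 ± 0.261 array SD over the 40 mice (SD). The clone at spot 15706, at -4.10 ± 0.761, gave about the lowest signal of its whole set, and its values spread widely from mouse to mouse. The brightest clone differed between the sexes by 0.0448 ± 0.0789 and had a slope of 0.0118 ± 0.0545. Neither passed. Its highest value was 1.23, in male replicate 5 at 17 to 44 days. The next was 1.01, in female replicate 4 at 704 to 743 days. Both mice are among those with outlying arrays, and no other mouse exceeded 0.439. The sex difference was -0.0859 ± 0.0525 at spot 12053, a dim clone, and -0.00913 ± 0.235 at spot 15706. Of 16 further calcium handling genes 6 were measured and 0 were called. For Itpr2, a calcium release channel of the endoplasmic reticulum, the difference of 704 to 743 minus 169 to 194 days was 0.230 ± 0.103 (limma p 0.0317, adjusted p 1.00).

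Among the V1 subunits, Atp6v1e1 had the most age-related variation of all members. It encodes a peripheral stalk subunit that holds the ATP-hydrolysing head in place. At 17 to 44 days the males had 0.839, 1.14, 0.846, 0.925 and 0.709 and the females 0.839, 1.08, 0.967, 1.10 and 1.04. At 704 to 743 days the males had 0.972, 1.30, 1.13, 1.20 and 1.10 and the females 1.36, 1.23, 1.17, 1.31 and 1.13. The oldest mice thus mostly exceeded the youngest, although several of them lay below the highest young male. The medians were 0.946, 1.15, 1.07 and 1.18 in the order of age.

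The slope of Atp6v1e1 was 0.103 ± 0.0361 array SD per year, with a 95% interval of 0.0305 to 0.176. Its limma p was 0.00643 and its adjusted p 0.937. From 17 to 44 to 169 to 194 days the difference was 0.158 ± 0.0742 (limma p 0.0393, adjusted 0.933), above 0 in 8 of 10 pairs of the same sex and round. Within each of the 5 rounds of arrays this difference was also above 0, from 0.0143 to 0.364. From 169 to 194 to 704 to 743 days it was 0.0845 ± 0.0742, and 0.0547 without the male of replicate 5 at 169 to 194 days. The same difference was 0.049 without all 8 mice with outlying arrays. The F value for any age difference was 3.71 (p = 0.0192, adjusted p = 1.00 in limma), 1.60 without the 5 mice of 17 to 21 days and 2.13 without the mice with outlying arrays.

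**Figure D2:**
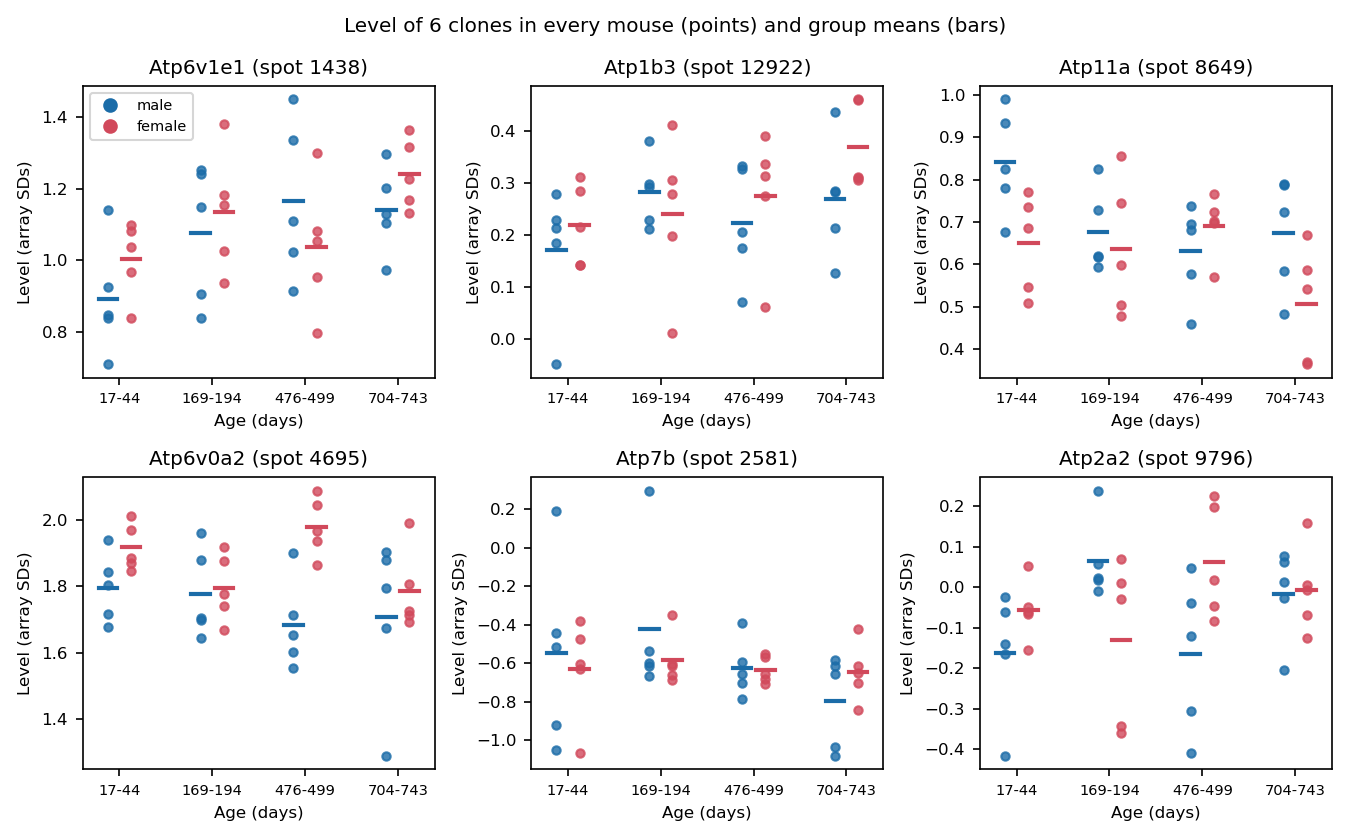
Level of 6 clones (array SDs) in every mouse at each age group in days, males in blue and females in red, with bars at the mean of 5 mice. In Atp6v1e1 the youngest mice have a median of 0.946 and the oldest of 1.18, and in all 6 panels the 4 age groups overlap when the sexes are pooled.

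Atp6v1b2 and Atp6v1a encode the B and A subunits that alternate in the catalytic head of V1. The brightest clone of Atp6v1b2 ran from 0.396 through a median of 0.835 to 1.25 in males and from 0.595 through 1.02 to 1.25 in females. The highest values of both sexes agree to the digits given, and the ranges overlapped. Males were lower by 0.130 ± 0.0576 on average (limma p 0.0294, adjusted 0.982), in 12 of 20 pairs and in each of the 5 rounds, where the difference ran from -0.333 to -0.0075. The largest gap was at 169 to 194 days, with 0.782 ± 0.241 in males and 1.12 ± 0.114 in females (SD, n = 5). The other clones of the gene had sex differences of -0.0526 ± 0.044 and 0.0234 ± 0.0409, so that the 3 clones did not share a sign.

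For the brightest clone of Atp6v1a the values at 704 to 743 days were 0.856, 1.04, 0.535, 1.02 and 1.07 in males and 1.21, 0.639, 0.933, 1.05 and 1.14 in females. At 169 to 194 days they were 1.14, 1.16, 1.08, 1.05 and 1.17 in males and 1.02, 1.24, 0.881, 0.905 and 1.22 in females. A single low mouse of each sex widened the oldest group, and the rest of it overlapped the younger one. The difference was -0.136 ± 0.0704 (limma p 0.0612, adjusted p 1.00), and -0.0896 without the male of replicate 3 in the oldest group. The other 2 clones of the gene gave 0.0306 ± 0.0663 and -0.0973 ± 0.0599, again without a common sign.

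The central stalk subunit Atp6v1d was measured at -0.535 to -0.200 in males (median -0.385) and at -0.877 to -0.277 in females (median -0.445). Males lay higher by 0.0859 ± 0.0423 (limma p 0.0491, adjusted 0.982), in 13 of 20 pairs and in 4 of the 5 rounds. The difference was 0.0498 without the mice with outlying arrays, which include the lowest female, and 0.0524 without the 5 mice of 17 to 21 days. Atp6v1c1, a subunit that joins the sectors and is known to regulate their assembly, had medians of 1.02, 1.03, 1.01 and 1.13 in the order of age. Its difference between 704 to 743 and 169 to 194 days was 0.0976 ± 0.0684, above 0 in 9 of 10 pairs, and did not pass. Its slope was 0.0474 ± 0.0317 array SD per year, and 0.0754 without the 5 mice of 17 to 21 days. Atp6v1g1, a further stalk subunit, had a mean of 0.0948 ± 0.207 in the youngest and -0.0603 ± 0.276 in the oldest mice (SD, n = 10). The medians of these groups lay closer, at 0.0729 and 0.008. Female replicate 4 held the lowest value of the oldest group, -0.807, and male replicate 1 the highest of the youngest, 0.45. Both are among the mice with outlying arrays.

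In the V0 sector, Atp6v0a2 had the smallest p of any member in the sex comparison. It encodes an isoform of the large a subunit, which lines the proton path and directs the pump to Golgi and endosomes. Males ran from 1.29 through a median of 1.71 to 1.96 array SD and females from 1.67 through 1.87 to 2.09. The upper part of the female range lay above all males, while the lower part was shared. The difference was -0.128 ± 0.046 (95% interval -0.221 to -0.0348, limma p 0.00833, adjusted 0.982), with males lower in 13 of 20 pairs and in each of the 5 rounds, where the difference ran from -0.231 to -0.0549.

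At 476 to 499 days the males had 1.60, 1.71, 1.90, 1.55 and 1.65 and the females 2.04, 2.09, 1.94, 1.86 and 1.97, with only the highest male inside the female range. At 169 to 194 days the means were 1.78 ± 0.135 and 1.80 ± 0.101 (SD, n = 5), close together. The test of a sex difference changing with age did not pass for this clone. Without the mice with outlying arrays the sex difference was -0.104. The difference of 169 to 194 minus 17 to 44 days was -0.0697 ± 0.0651, and -0.0402 without those mice.

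Atp6v0a4 is the a subunit isoform of intercalated cells, in which mutations cause distal renal tubular acidosis, and is thus the member closest to urinary acid secretion. The brighter of its 2 clones averaged 0.108 ± 0.203, 0.168 ± 0.231, 0.076 ± 0.198 and 0.222 ± 0.184 in the order of age (SD, n = 10). These means had no common order with age and lay within the spread of the mice, and its sex difference was 0.028 ± 0.0657. The other clone differed between the sexes by -0.0147 ± 0.0492. Slc4a1, the anion exchanger that works with the pump in these cells, deviated from its overall mean by 0.0466 ± 0.195 in the youngest and by -0.0033 ± 0.0946 in the oldest mice.

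For Atp6v0a1, the widely expressed a subunit isoform, the difference of 704 to 743 minus 169 to 194 days was 0.172 ± 0.117 (limma p 0.149), and 0.309 without the mice with outlying arrays. Its values ran from -0.0361 to 0.64 in the younger and from 0.344 to 0.821 in the older of these groups. Atp6v0b, a proteolipid of the rotor ring, differed by 0.0731 ± 0.0622 between males and females, and by 0.0304 without the female of replicate 4 in the oldest group, whose value of -0.564 was the lowest of all mice. It was 0.0258 without all 8 mice with outlying arrays. Atp6v0e, a small membrane subunit, was dim.

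Atp6v0d1, which couples the rotor ring to the central stalk, had the third smallest p for a sex difference changing with age (F = 3.10, p = 0.0377, adjusted p = 1.00 in limma). At 704 to 743 days the males had 0.805, 0.769, 0.863, 0.974 and 0.744 and the females 0.789, 0.801, 0.74, 0.312 and 0.545. The last 2 of these females carried the gap, and both are among the mice with outlying arrays. F was 2.01 without female replicate 4 alone and 0.446 without all 8 such mice.

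The accessory subunit Atp6ap2, also known as the prorenin receptor, is needed for assembly of the V-ATPase. In males of 17 to 44 days it had 1.07, -0.399, -0.591, -0.307 and -0.953, and in all other groups its highest value was -0.23. The difference of 169 to 194 minus 17 to 44 days was -0.208 ± 0.131 (limma p 0.121), and -0.0451 without that 1 male, replicate 1, whose array stood apart. It was -0.0664 without all 8 such mice. Atp6ap1, the other accessory subunit, averaged -0.261 ± 0.142 in the youngest and -0.208 ± 0.191 in the oldest mice (SD, n = 10).

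Of 23 V-ATPase partners and acid-base transporters 14 were measured and 0 were called in any comparison. Rogdi, a member of the RAVE complex that joins V1 to V0, differed by -0.140 ± 0.0566 between males and females (limma p 0.0177, adjusted 0.982). Its difference of 169 to 194 minus 17 to 44 days was -0.180 ± 0.08 (p 0.0306, adjusted 0.933 in limma). Ccdc115, an assembly factor, had F = 4.80 for a sex difference changing with age (p = 0.0061, adjusted p = 1.00 in limma).

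Atp7b, the copper pump that is defective in Wilson disease, had at 169 to 194 days -0.601, -0.665, -0.536, 0.295 and -0.613 in males and -0.603, -0.35, -0.661, -0.688 and -0.612 in females. At 704 to 743 days the males had -0.656, -1.08, -0.584, -0.613 and -1.04, and the females -0.424, -0.704, -0.616, -0.843 and -0.653. A single male at 169 to 194 days lay far above all others, a pair of old males lay lowest, and the remaining values of both groups overlapped. The difference was -0.218 ± 0.116 (limma p 0.0678, adjusted p 1.00), lower in the older mice in 8 of 10 pairs, and -0.128 without male replicate 4 at 169 to 194 days. It was -0.0997 without all mice with outlying arrays. Its slope of -0.0855 ± 0.0546 array SD per year was -0.0543 without male replicate 1 of the youngest group, -0.0322 once all mice with outlying arrays were left out and -0.133 without the 5 mice of 17 to 21 days.

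Atp7a, the related copper pump that is defective in Menkes disease, had a slope of 0.0244 ± 0.0265 on its brighter clone and of -0.0587 ± 0.044 on its dim one. Of 8 further copper handling genes 6 were measured (Atox1, Slc31a1, Commd1, Ccs, Mt1 and Mt2) and 0 were called. Metallothionein Mt2 had F = 3.13 for a sex difference changing with age (p = 0.0364, adjusted p = 1.00 in limma).

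Among the flippases, Atp11a moves phosphatidylserine and phosphatidylethanolamine to the inner leaflet of the plasma membrane. In males its brighter clone had 0.99, 0.826, 0.677, 0.933 and 0.78 at 17 to 44 days, 0.825, 0.728, 0.617, 0.594 and 0.62 at 169 to 194 days, and 0.788, 0.791, 0.725, 0.585 and 0.482 at 704 to 743 days. In females it had 0.686, 0.735, 0.508, 0.77 and 0.546 in the youngest and 0.668, 0.587, 0.541, 0.363 and 0.368 in the oldest group. The highest value of all mice was that of a young male and the lowest that of an old female, and neighbouring ages overlapped in both sexes. In the order of age the means were 0.841, 0.677, 0.630 and 0.674 in males and 0.649, 0.637, 0.692 and 0.506 in females. Thus neither sex fell steadily with age, and at 476 to 499 days females averaged above males.

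The slope of Atp11a was -0.0659 ± 0.0287 array SD per year (limma p 0.0266, adjusted 0.937), and -0.0419 without the mice with outlying arrays. The difference of 169 to 194 minus 17 to 44 days was -0.0883 ± 0.0579, and -0.0337 without them. F for any age difference was 2.41 (limma p 0.0813), and 0.855 without them. Males lay above females by 0.0848 ± 0.0409 (limma p 0.0449, adjusted 0.982), in 14 of 20 pairs and in each of the 5 rounds, by 0.0485 to 0.135. The second clone of Atp11a, on the other filter set, had a slope of 0.0111 ± 0.0401 and a sex difference of 0.057 ± 0.0618.

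Atp8b2, a flippase of the plasma membrane, differed by -0.123 ± 0.0879 between 704 to 743 and 169 to 194 days (limma p 0.168) and lay lower at the older age in 5 of 10 pairs. This difference was -0.0781 without female replicate 4 of the oldest group and changed sign to 0.00906 without the 8 mice with outlying arrays. Its slope was -0.0636 ± 0.0415 array SD per year, and -0.0157 without those mice. Atp11b and Atp9a, relatives at endosomal membranes, had sex differences of 0.0246 ± 0.0621 and 0.0311 ± 0.0769, the latter on a dim clone. Tmem30b, Xkr8 and Ano6, the measured 3 of 8 flippase partners and scramblases, held 0 calls.

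The P5 ATPases completed the set. Atp13a1, which removes misplaced helices from the endoplasmic reticulum membrane, had slopes of 0.0511 ± 0.0459 and 0.0431 ± 0.0356 on its 2 clones. Atp13a3, a polyamine transporter, showed on its brightest clone F = 3.31 for a sex difference changing with age (p = 0.0298, adjusted p = 1.00 in limma). At 704 to 743 days the males had 1.44, 1.34, 1.55, 1.52 and 1.49 and the females 1.54, 1.61, 1.64, 1.69 and 1.75, so that a single male stood above the lowest female. At 476 to 499 days the order was the opposite, with 1.71 ± 0.132 in males and 1.54 ± 0.143 in females (SD, n = 5), and the groups overlapped. F was 2.02 without the mice with outlying arrays. For another of its clones 169 to 194 minus 17 to 44 days was -0.163 ± 0.071 (limma p 0.027, adjusted 0.933), while the brightest moved by 0.0113 ± 0.0554. The other clones of Atp13a3 did not repeat both sex orders of the brightest. At spot 4763 males averaged higher at 704 to 743 days (0.139 against 0.0781) and lower at 476 to 499 days (0.0355 against 0.105). At spot 1051, a dim clone, males averaged lower at both ages (-1.12 against -1.11 and -1.23 against -1.07).

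Atp23, the mitochondrial protease, differed between the sexes by -0.00514 ± 0.059 and had a slope of 0.0112 ± 0.0395 array SD per year.

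Beyond sex and age, the round of arrays held a larger share of the variance than either. Over the 42 clones the round took a median of 17.2% of the variance of a clone over the 40 mice (1.81 to 48.4%), age group 5.90%, sex 0.865% and sex by age 5.99%, and 65.4% remained between mice. The shares that their degrees of freedom alone would give are 10.3% for the round, 7.69% for age and 2.56% for sex. All 16896 clones had medians of 18.4% for the round, 5.55% for age, 1.25% for sex and 63.3% for the remainder, values close to those of the members. The round's share was highest in the dimmest Atp2b1 clone (48.4%), in the brighter clone of Atp6v0a4 (45.4%), in the dim clone of Atp7a (43.1%) and in Atp23 (39.7%). Age took its highest share in Atp6v1e1 (24.5%), sex in Atp6v0a2 (17.6%) and sex by age in the brightest clone of Atp13a3 (28.3%).

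**Figure D3:**
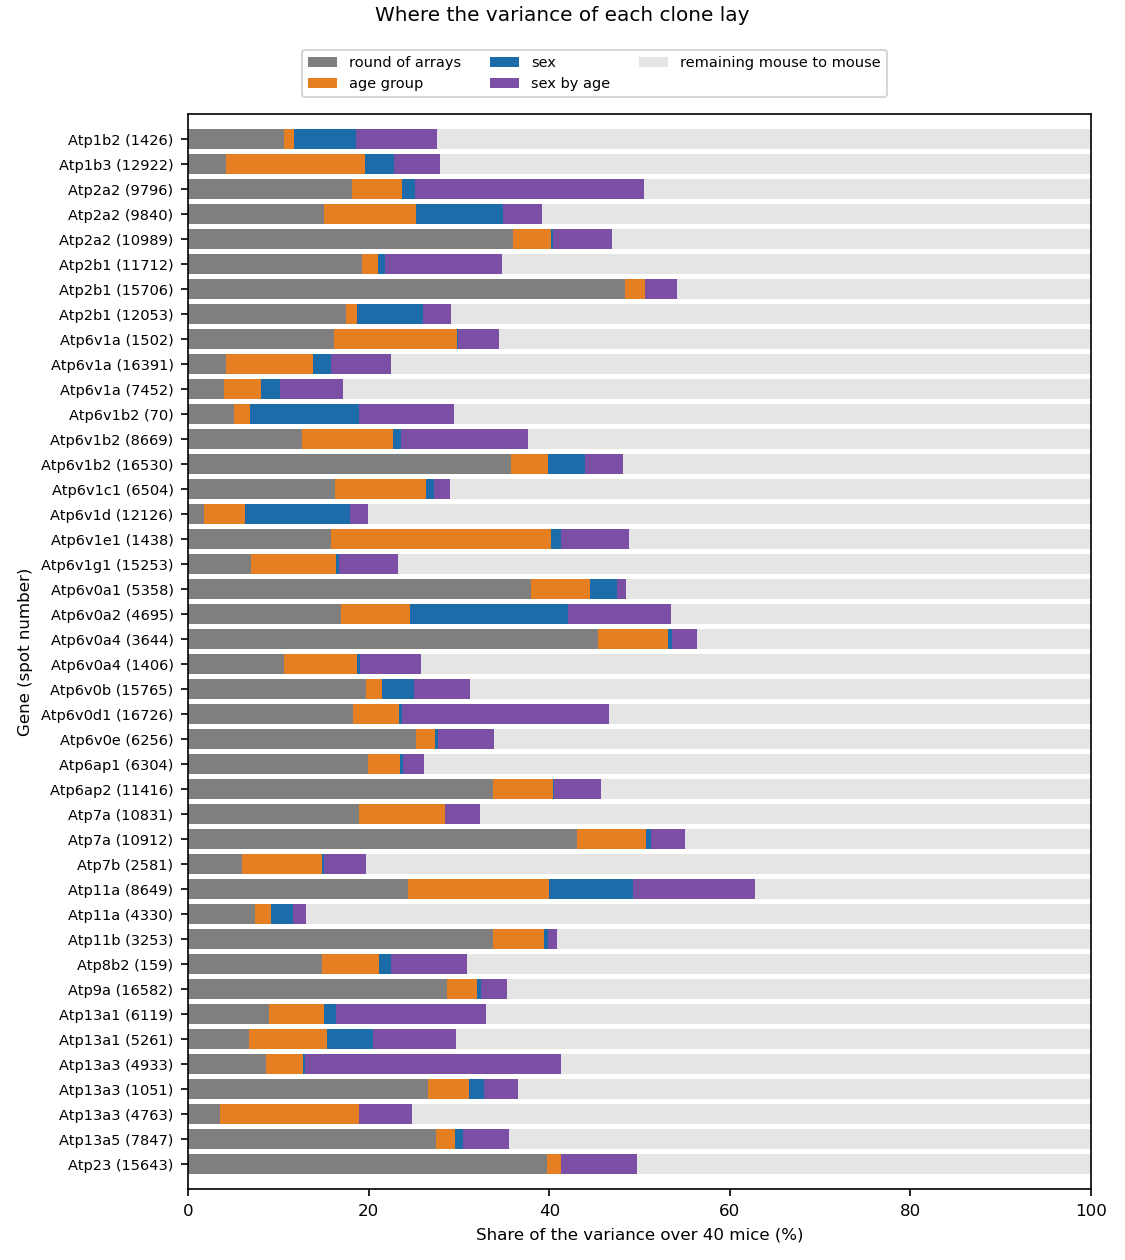
Share of the variance over 40 mice (percent) of each of the 42 clones that lay between rounds of arrays, age groups, sexes and their combination, with the remainder in light grey. The round (median 17.2%) is wider than age (median 5.90%) in most bars, while Atp6v1e1 has the widest age share, 24.5%.

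Several genes had more than 1 clone, which allowed their readings to be compared over the 40 mice. Clones of 1 gene formed 19 pairs, whose Pearson correlations had a median of 0.00356 and ran from -0.384 to 0.655, with 10 of 19 above 0. After removing the mean of each round the median was -0.0724. In permutation tests of Pearson's r (100000 resamples, two-sided, adjusted over the 19 pairs), 4 pairs had an adjusted p under 0.05, and r was above 0 in all 4 of them. Permutations here and below moved all 40 mice freely, without regard to sex, age or round. Their p-values therefore cannot separate agreement of clones from variation that mice of a round or group share. By rho 3 of the pairs had one.

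The closest pair was of Atp2a2, between the brightest clone and the dim one at spot 9840 (r = 0.655, rho = 0.702, adjusted permutation p = 0.00038 for r). It kept r = 0.565 without the 2 mice farthest from the median of the brightest clone and 0.628 with round means removed. For each pair here and below, the 2 mice left out were chosen on 1 clone only, the brighter of a gene or the gene named first. Extreme values of the other clone thus stayed in. The Atp2a2 clones at spots 10989 and 9840, both dim, had r = 0.431 and rho = 0.305 (adjusted permutation p = 0.0366 for r and 0.175 for rho), but r = 0.292 without 2 mice. For Atp6v1a the clones at spots 7452 and 16391, which lie on different filters, had r = 0.461 and rho = 0.428 (adjusted permutation p = 0.0218 for r), and r = 0.468 without 2 mice. The 2 clones of Atp13a1 had r = 0.422 and rho = 0.443 (adjusted permutation p = 0.0366 for r), and r = 0.531 without 2 mice. By contrast, the brightest clone of Atp6v1b2 and the clone at spot 16530, also bright, had r = -0.217, and the pair of Atp11a clones had r = -0.0196. Which transcripts each clone detects is not given in the sources used here.

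**Figure D4:**
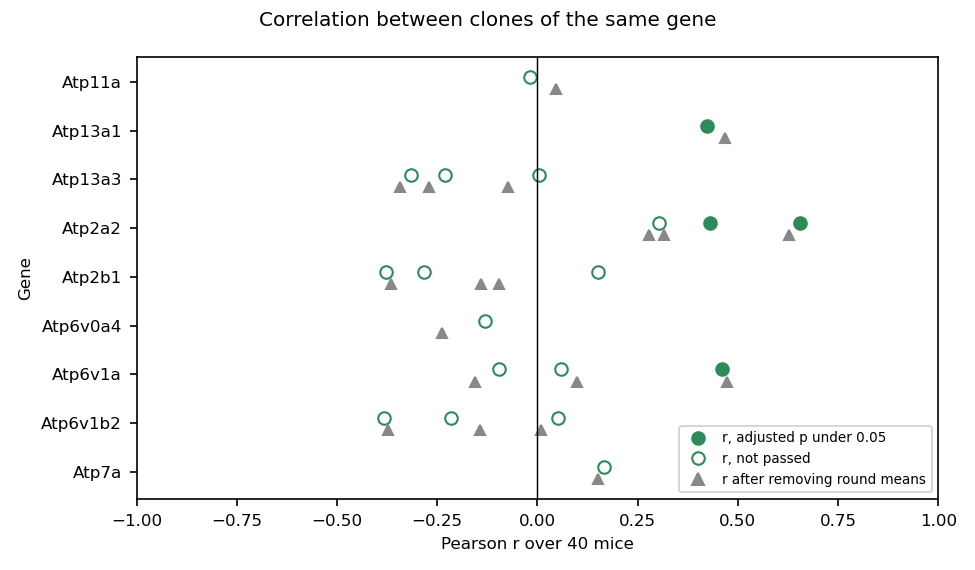
Pearson correlation over 40 mice between clones of the same gene, 1 circle per pair and filled where the adjusted permutation p is under 0.05, with grey triangles for the value after removing round means. Pairs of Atp2a2, Atp6v1a and Atp13a1 lie highest, up to 0.655, while the median of the 19 pairs is 0.00356.

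Subunits of the V-ATPase, taking the brightest clone of each of the 14 genes, formed 91 pairs with a median r of -0.0453 over the 40 mice, from -0.356 to 0.582. In 6 of them the permutation p of r adjusted over the 91 pairs was under 0.05, each with r above 0 and both clones on the same filter. By Spearman's rho 4 pairs had such a p, of which 2 (Atp6v0a1 with Atp6v1c1 and with Atp6v0a4) are among these 6. The others by rho were Atp6v0a1 with Atp6v0a2, below 0 (rho = -0.499, r = -0.356, adjusted permutation p 0.0298 for rho and 0.222 for r), and Atp6ap2 with Atp6v0a2, on different filters (rho = 0.551, r = 0.343, adjusted permutation p 0.0232 for rho and 0.252 for r). With round means removed their r was -0.228 and 0.244. Atp6v0b, Atp6v0d1 and Atp6v1g1, on set B, correlated with each other at r of 0.523 to 0.582 (rho 0.334 to 0.364). The adjusted permutation p was 0.0205 to 0.0293 for r and 0.188 to 0.254 for rho. These values of r rest on few mice, since without the 2 farthest they were 0.159 to 0.247. On set A, Atp6v0a1 and Atp6v1c1 had r = 0.549 and rho = 0.526 (adjusted permutation p = 0.0205 for r). Their r was 0.490 without 2 mice and 0.496 with round means removed. For Atp6v0a1 and Atp6v0a4 r was 0.507 and rho 0.492 (adjusted permutation p = 0.0264 for r), but r was 0.220 with round means removed. Atp6ap1 and the dim clone of Atp6v0e had r = 0.480 and rho = 0.448 (adjusted permutation p = 0.0293 for r and 0.0745 for rho), and r = 0.320 without 2 mice. Clones on 1 filter share that array's signal and background, whose part in these correlations was not tested.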

How the data were processed

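Kidney RNA of 40 mice was measured on 80 filter arrays. Per the labels, RNA was extracted on silica columns and labelled with 33P. The values deposited by the authors are scores with mean 0 and SD 1 on each array. For image reading and background correction the method was not given in the sources used here. Arrays differed in interquartile range (7.63% at most in set A, 4.21% in B), so each set was quantile normalized on its own. Groups followed the sex and age fields, also for a male of 714 days with a description of some other mouse.

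Each set was fitted with limma 3.58.1 (lmFit, eBayes) in R 4.3.3 on the means of the 8 groups, or on age in years of 365 days with sex, over all 40 mice, and p-values were adjusted by the Benjamini-Hochberg method over both sets together. The fit was tested on simulated data. Standard errors are limma's. The number of arrays limits the precision.

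The platform table gave 1 symbol to 9663 clones, several to 436 and none to 6797. All 42 member clones matched RefSeq by gene ID. The clone of highest brightness rank represented a gene. Named were, per comparison, the 3 genes in each direction with the smallest p, and in the F tests the 3 genes. Other members are given by family, and the other clones of a gene beside its representative. Members, lists and tests were chosen with earlier results of these data known. Nothing says that the mice came from separate litters.

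Alternatives were the values as deposited, the round of arrays as a block, array weights, eBayes with trend and robust, no dim clones, representatives only, no mice of 17 to 21 days, no mice with outlying arrays (3 MADs below the median), and each mouse left out in turn.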

Additional observations from a re-analysis of the deposited data

Results flagged for a closer look

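In the groups of 5 mice, 4 of 136 combinations of a named clone and a group (2.94%) held a mouse whose gap to its nearest neighbour took more of the group's range than Dixon's 95% critical value of 0.71. Chance gives this in about 1 in 20 groups. Atp7b had 0.2948 in male replicate 4 at 169 to 194 days, where the other males of that age lay between -0.665 and -0.536. The same mouse had the outlying value of Atp2a2 (spot 9796), 0.2378 against -0.00912 to 0.0583 in the others, and it has an array that stood apart from its set. Atp7b also had -0.35 in female replicate 2 at 169 to 194 days, against -0.6875 to -0.603. Atp6v1b2 (spot 70) had 0.7625 in female replicate 3 at 476 to 499 days, against 0.9935 to 1.07.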

How the results depend on the processing

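No member was called in any of 282 combinations of a comparison with a setting, and the lowest adjusted p of a named clone or member under any of them was 0.522. None of the 1409 recomputed values of the 30 named results passed the threshold. Of these results 6 are F values, which have no direction, and of the 1127 recomputed values of the other 24, 1126 kept their direction. The exception was Atp8b2 between 704 to 743 and 169 to 194 days, which was 0.00906 without mice with outlying arrays. In the same setting the members' median for 169 to 194 minus 17 to 44 days was -0.00609. Counts over all clones were less stable. With the replicate block (round of arrays) 1 clone was called for any age difference, 2 for the slope and 19 for sex (18 without it). With array weights 27 were called for sex, 1 for any age, 1 for the slope and 1 for 704 to 743 minus 169 to 194 days. Without mice with outlying arrays 1 was called for any age and 1 for the slope. Without the 5 mice of 17 to 21 days, 11 were called for sex and 1 for 169 to 194 minus 17 to 44 days. Leaving out single mice gave 0 to 1 for the slope. Rounds are only serial numbers in the titles: deviations of mice of 1 round correlated at 0.145 on average in set A and 0.197 in set B, above 0.1 in 74 and 94 of 140 pairs, and 23 and 27 of 40 mice correlated best with their own round. The replicate block left the members' count at 0 in every comparison. Precision is limited by 5 mice a group, and dim clones by their signal, which lies in the lowest 25% of a set.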
